A study of Mus musculus with 9 samples.

Results

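The genes examined here encode subunits of Integrator and the factors that cut and polyadenylate messenger RNA. They are 32 genes of the 17943 in the deposited table, 13 of Integrator and 19 of the cleavage, polyadenylation and termination machinery, listed by symbol with earlier results of these data known. All 32 were found in the table, and all 32 passed the filter on low counts (a sum of at least 10 over the mice) together with 16426 genes in all. RNA was sequenced from the skin of 9 mice, 5 controls and 4 *Supt6*-KO mice, collected 10 days after the last injection. Controls were *Supt6* fl/fl mice given corn oil, labelled WT, and *Supt6*-KO mice carried K14-CreERT with the same floxed alleles and received tamoxifen, labelled *Supt6* knockdown. The Cre transgene, tamoxifen and loss of *Supt6* therefore changed together and cannot be told apart in these libraries. K14 directs Cre to basal keratinocytes, and the study's single-cell data showed less *Supt6* in basal, suprabasal and dividing keratinocytes. The RNA here came from whole skin, which also holds cells that do not descend from basal keratinocytes. The labels name the tissue as ear and the methods name dorsal skin. Age at collection is not given in the labels.

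Each library held between 29627341 and 30967107 estimated reads on genes. The composition of the libraries differed between the groups, because the 50 most abundant genes took 16.3% to 17.3% of the reads in controls and 19.7% to 30.4% in *Supt6*-KO mice. Counts were therefore scaled to a common library size (CPM) with the trimmed mean of M-values (TMM). Fold changes are also given with library totals, which shift the whole scale down, from a median over all genes of −0.072 on the log2 scale to one of −0.759. Controls 1 and 3 held 3 and 2 reads over 4 Y-linked genes and the other 7 mice between 5483 and 7345, so the sexes of the groups were not balanced. Control 5 and *Supt6*-KO mouse 4 stood apart from the rest of their groups on the second principal component, which held 8.13% of the variance. *Supt6*-KO mouse 4 also had the highest CPM of its group for 29 of the 32 genes, against 35.4% of all genes tested. A repeat without this mouse is given below.

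Integrator is a large complex that binds paused RNA polymerase II and ends transcription early. Its catalytic core cuts the nascent transcript, a second module carries a protein phosphatase, and the same complex makes the 3' ends of small nuclear RNAs. Most messenger RNA is instead finished by the cleavage and polyadenylation machinery, in which the cleavage and polyadenylation specificity factor (CPSF) reads the poly(A) signal and cuts, the cleavage stimulation factor (CstF) and the cleavage factors I and II read the flanking sequence, and poly(A) polymerase adds the tail. SPT6, the product of *Supt6*, is a histone chaperone that travels with elongating RNA polymerase II. Both machineries work in every cell type of the skin.

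Fold changes of the members moved with the base composition of their transcripts, so the middle of the coding sequence is shown first for pairs of genes that went in opposite directions. Each stretch is 90 bases of the transcript with the longest coding sequence in the GENCODE annotation of GRCm38, read 5′ to 3′, with G and C in capitals.
Ints1: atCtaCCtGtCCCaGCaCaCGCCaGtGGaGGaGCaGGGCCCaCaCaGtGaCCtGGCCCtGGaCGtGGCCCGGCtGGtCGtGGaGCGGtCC
Ints2: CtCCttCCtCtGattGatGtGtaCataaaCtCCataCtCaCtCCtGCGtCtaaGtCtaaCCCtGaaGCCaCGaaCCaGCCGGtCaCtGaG
Ints9: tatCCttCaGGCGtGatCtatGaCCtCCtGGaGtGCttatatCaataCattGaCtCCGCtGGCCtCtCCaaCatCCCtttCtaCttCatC
Ints11: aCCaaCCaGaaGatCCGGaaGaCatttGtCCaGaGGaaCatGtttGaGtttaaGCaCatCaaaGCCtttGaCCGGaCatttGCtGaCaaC
Sympk: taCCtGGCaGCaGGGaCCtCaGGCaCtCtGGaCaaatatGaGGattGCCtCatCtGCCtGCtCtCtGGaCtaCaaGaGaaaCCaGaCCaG
Nudt21: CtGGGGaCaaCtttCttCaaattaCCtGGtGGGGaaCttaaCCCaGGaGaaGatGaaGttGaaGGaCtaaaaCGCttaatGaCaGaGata
G and C made up 61.0% of the whole *Ints1* coding sequence and 47.4% of that of *Ints2*, and at the third base of each codon 77.5% and 48.7%. *Ints1* fell and *Ints2* rose in *Supt6*-KO skin (below). For *Sympk* and *Nudt21*, the member that fell most and the member that rose most, G and C made up 58.1% and 48.3% of the coding sequence. *Ints9* and *Ints11*, whose products pair to form the Integrator endonuclease, had nearly the same share, 51.6% and 52.9%, and moved in opposite directions after TMM scaling. *Ints11* is not among the 32 genes and is described with the other Integrator genes.

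*Supt6* itself was measured first, as a check of the labels. It lies on chr11:78206749-78245972 (GRCm38, minus strand). In controls *Supt6* was at 74.5, 56.6, 63.6, 91.1 and 96.7 CPM, and in *Supt6*-KO mice at 28.6, 24.1, 21.9 and 28.4 CPM. Every *Supt6*-KO mouse lay below every control, with a mean of 25.8 ± 3.31 (SD, n = 4) CPM, which is 33.7% of the control mean. The log2 fold change was −1.57 ± 0.18 (SE, adjusted p = 1.29e-05), and an exact two-sided permutation test over the 126 regroupings of the mice gave p = 0.00794, the smallest it allows. Over the 22 alternatives *Supt6* was called lower each time, with a log2 fold change between −2.26 with library totals and −0.44 after an offset for transcript GC content and length. The study's floxed allele loses only some of its exons, whereas the count covers the whole gene. Reads from the remaining exons of a recombined allele can still be counted, so the 33.7% is not a measure of intact *Supt6* RNA. In bulk skin, fewer cells of a type and less RNA per cell cannot be told apart.

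Of the 32 genes, 10 rose and 9 fell in *Supt6*-KO skin at an adjusted p under 0.05 (edgeR quasi-likelihood test, Benjamini-Hochberg over 16426 genes), and 13 did not pass. Over all genes tested, 34.1% were called higher and 36.8% lower, 71.0% together, so the share of members called higher was near the background, and the difference from it was not tested in either direction. At a change of at least 2-fold the counts were 3 higher and 4 lower, against 20.9% and 24.9% of all genes. The 4 *Supt6*-KO mice lay wholly above the 5 controls for 8 members and wholly below for 7, against 28.9% and 31.8% of all genes. The members' median on the log2 scale was 0.18, beside −0.07 for all genes. With library totals the counts became 1 higher and 17 lower, against 16.9% and 54.6% of all genes, and the median turned to −0.48. Each library is a separate mouse by its label.

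**Figure D1:**
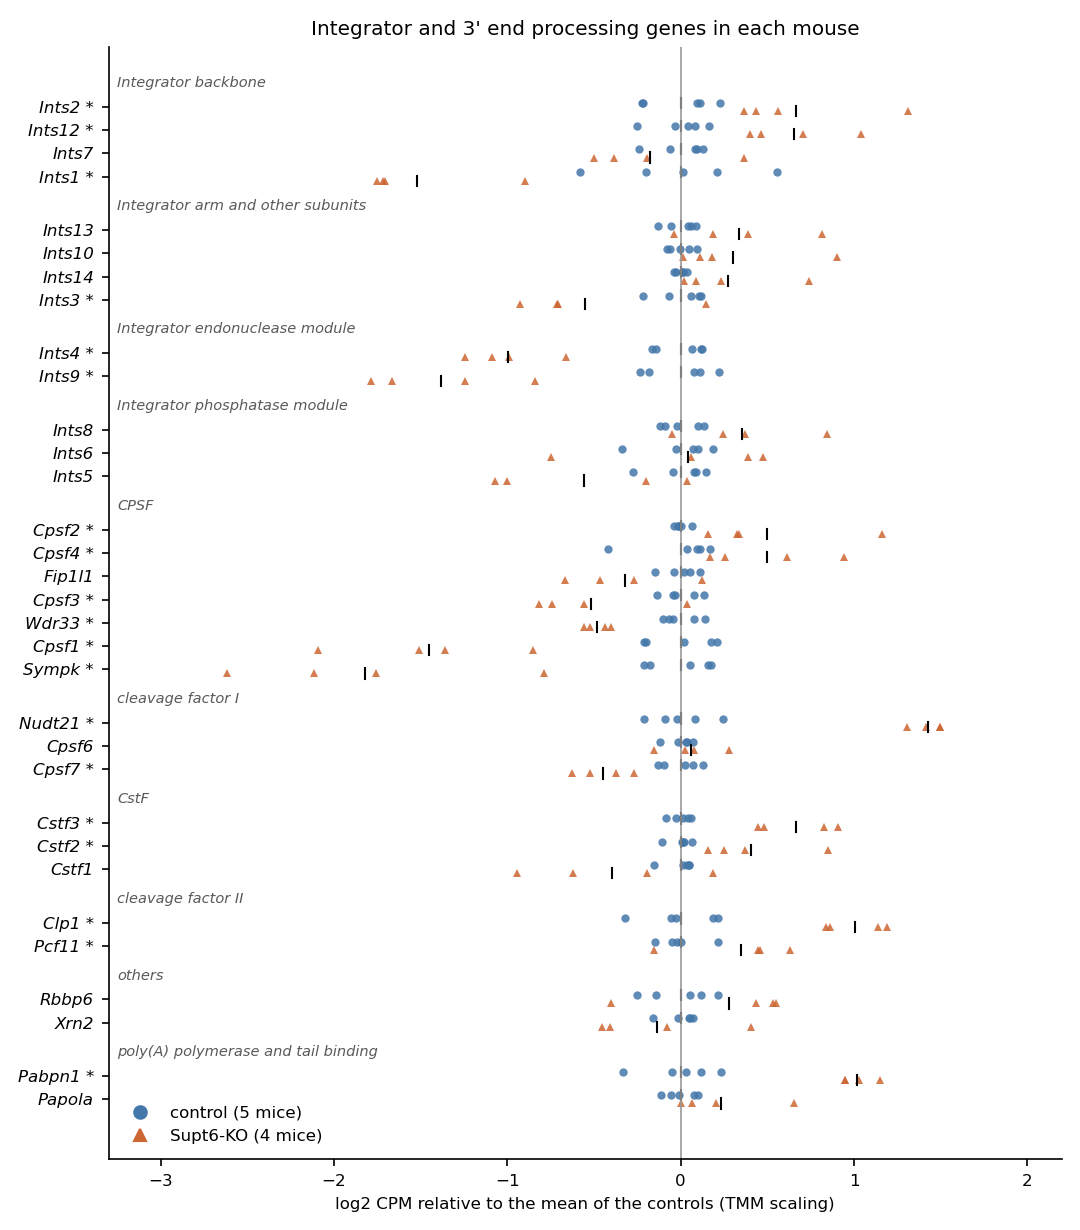
Log2 CPM of each of the 32 genes in each mouse, relative to the mean of the controls, grouped by role. Circles are the 5 controls, triangles the 4 *Supt6*-KO mice, black ticks the group means, and an asterisk marks an adjusted p under 0.05. The *Supt6*-KO mice lie wholly above the controls for 8 genes and wholly below for 7.

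The Integrator backbone split. *Ints1*, the largest subunit and a scaffold of the complex, fell, whereas *Ints2* and *Ints12*, which sit in the same backbone, rose. In controls *Ints1* was at 17.5, 11.6, 15.1, 20.04 and 25.4 CPM, and in *Supt6*-KO mice at 5.26, 5.13, 5.31 and 9.304 CPM. The *Supt6*-KO mice lay below all controls, and *Supt6*-KO mouse 4 was the highest of the 4. The log2 fold change of *Ints1* was −1.52 ± 0.26 (SE, adjusted p = 0.000296), or −2.18 with library totals, but it turned to 0.31 after an offset for transcript GC content and length. *Ints1* lies on chr5:139751282-139775702 and has 47 exons. In controls *Ints2* was at 10.8, 8.54, 10.7, 8.6 and 11.7 CPM, and in *Supt6*-KO mice at 12.9, 13.5, 14.7 and 24.7 CPM. Here the groups did not overlap in the other direction, again with *Supt6*-KO mouse 4 at the top. This gave *Ints2* a log2 fold change of 0.71 ± 0.21 (SE, adjusted p = 0.00881), and it shrank to 0.05 with library totals. Leaving out 1 mouse at a time put *Ints2* between 0.44 and 0.81, called higher in all 9 fits. *Ints2* lies on chr11:86210681-86257609. *Ints12*, a small subunit with a PHD finger, rose by 0.67 ± 0.15 (SE) on the log2 scale, or 0.01 with library totals. *Ints7*, the last backbone member, had a log2 fold change of −0.14 ± 0.18 (SE) and did not pass. With library totals *Ints7* was −0.80 and called lower. It was called higher after the offset for transcript length and after that for GC content and length, at 0.64 after the latter.

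Both members of the endonuclease module fell. *Ints9* is the inactive partner of the cutting subunit, and *Ints4* holds the pair together. In controls *Ints9* was at 21.98, 17.7, 18.4, 24.3 and 22.5 CPM, and in *Supt6*-KO mice at 8.78, 6.57, 6.04 and 11.6 CPM. The highest *Supt6*-KO mouse was well below the lowest control. The log2 fold change of *Ints9* was −1.34 ± 0.20 (SE, adjusted p = 0.000117), and that of *Ints4* was −0.98 ± 0.14 (SE, adjusted p = 9.34e-05), from 24.7 ± 2.39 (SD, n = 5) CPM in controls to 12.5 ± 2.204 (SD, n = 4) CPM in *Supt6*-KO mice. *Ints9* and *Ints4* were called lower in all 22 alternatives, with a log2 fold change between −2.0 and −0.78 for *Ints9* and between −1.66 and −0.60 for *Ints4*. *Ints9* lies on chr14:64950045-65039835 and *Ints4* on chr7:97480951-97541398.

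The phosphatase module showed no member past the threshold in the edgeR test. *Ints8*, which holds the phosphatase, came closest. In controls *Ints8* was at 32.7, 32, 27.4, 29.4 and 27.98 CPM, and in *Supt6*-KO mice at 38.5, 28.8, 35.4 and 53.5 CPM. *Supt6*-KO mouse 2 lay within the range of the controls and the other 3 above it. The change in *Ints8* was 0.39 ± 0.16 (SE, adjusted p = 0.0504) on the log2 scale, with an unadjusted p of 0.036, and it turned to −0.27 with library totals. Over the 22 alternatives, *Ints8* was called higher in 6, *Ints6* higher in 2 and *Ints5* lower in 6. The locus of *Ints8* overlaps the cyclin gene *Ccne2* on the opposite strand over 5622 bases, and its counts were not whole in any of the 9 mice, as happens where reads are split between genes. *Ints5* had a log2 fold change of −0.48 ± 0.23 (SE), or −1.13 with library totals, where it was called lower. *Ints6* was at 0.11 ± 0.22 (SE), and turned to −0.55 with library totals.

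Among the remaining subunits, *Ints3* fell and *Ints10*, *Ints13* and *Ints14* did not pass. *Ints3* also belongs to the SOSS complex, which binds single-stranded DNA at breaks. In controls *Ints3* was at 36.7, 32.3, 29.1, 36.3 and 35.2 CPM, and in *Supt6*-KO mice at 20.7, 17.8, 20.6 and 37.4 CPM. *Supt6*-KO mouse 4 lay above all controls and the other 3 below all of them. The change in *Ints3* was −0.49 ± 0.20 (SE, adjusted p = 0.0466) on the log2 scale. It was no longer called in 13 of the 22 alternatives and turned to 0.44 after the offset for GC content and length. *Ints10*, *Ints13* and *Ints14* form a separate arm of the complex. Their log2 fold changes lay between 0.30 and 0.37, and they turned to between −0.36 and −0.29 with library totals. Over the 22 alternatives they were called higher in 4, 6 and 7. Summed over the 13 Integrator members, the CPM was 299 ± 17.9 (SD, n = 5) in controls and 295 ± 80.5 (SD, n = 4) in *Supt6*-KO mice.

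CPSF held both falls and rises. Its members that read the poly(A) signal are *Cpsf1*, *Wdr33*, *Cpsf4* and *Fip1l1*, and those of the cutting module are *Cpsf3*, the endonuclease, *Cpsf2*, its inactive relative, and *Sympk*, the scaffold symplekin. *Sympk* fell more than any other member after TMM scaling. In controls *Sympk* was at 45.8, 38.1, 39.1, 49.4 and 49.9 CPM, and in *Supt6*-KO mice at 13.1, 7.196, 10.2 and 25.6 CPM. The 2 groups were apart, although *Supt6*-KO mouse 4 was closer to the controls than the other 3. The log2 fold change of *Sympk* was −1.66 ± 0.31 (SE, adjusted p = 0.000482), which put *Supt6*-KO skin at 31.5% of the control mean, but it was −0.47 and no longer called after the offset for GC content and length. *Sympk* lies on chr7:19024377-19054623. *Cpsf1*, the largest CPSF subunit, fell from 39.2 ± 5.35 (SD, n = 5) to 14.9 ± 5.13 (SD, n = 4) CPM, a log2 fold change of −1.39 ± 0.22 (SE, adjusted p = 0.000141), which became −0.29 and was not called after the same offset. *Cpsf3* fell by 0.48 ± 0.17 (SE) on the log2 scale, a call lost in 6 of the 22 alternatives (without control 4, control 5 or *Supt6*-KO mouse 1, 2 or 3, and without controls 1 and 3 together), where it lay between −0.50 and −0.39. *Wdr33* fell by 0.48 ± 0.10 (SE) on the log2 scale and turned to 0.53 after the offset for GC content and length.

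*Cpsf2* rose after TMM scaling, but not with library totals. In controls *Cpsf2* was at 44.4, 42.03, 41.4, 42.5 and 42.01 CPM, and in *Supt6*-KO mice at 53.1, 47.5, 53.7 and 95.1 CPM. The 3 lower *Supt6*-KO mice were just above the controls and mouse 4 was far above. This gave *Cpsf2* a log2 fold change of 0.55 ± 0.18 (SE, adjusted p = 0.0177), but it turned to −0.09 with library totals. With 1 mouse left out at a time it lay between 0.27 and 0.65 and was called higher in all 9 fits. *Cpsf4*, a zinc finger protein that contacts the poly(A) signal, rose by 0.52 ± 0.19 (SE) on the log2 scale and turned to −0.14 with library totals, and it was called in 15 of the 22 alternatives. Besides library totals, the call was lost with a replicate block and after the offset for transcript length, at 0.29 after that offset. Leaving out control 5, *Supt6*-KO mouse 1, *Supt6*-KO mouse 4, or controls 1 and 3 together also ended it, at 0.43, 0.49, 0.34 and 0.58. *Fip1l1*, which brings in poly(A) polymerase, had a log2 fold change of −0.29 ± 0.15 (SE) and did not pass, but with library totals it was −0.95 and called lower. It overlaps *Lnx1* on the opposite strand over 6344 bases.

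In CstF, which binds the region downstream of the cut, 2 of the 3 subunits rose after TMM scaling and neither with library totals. In controls *Cstf3* was at 21.98, 22.4, 21.4, 22.7 and 20.5 CPM, and in *Supt6*-KO mice at 30.4, 29.7, 38.6 and 40.8 CPM. All *Supt6*-KO mice were above all controls. *Cstf3*, the scaffold subunit, had a log2 fold change of 0.68 ± 0.12 (SE, adjusted p = 0.000432), and it was −0.00 with library totals and 0.19 and not called after the offset for GC content and length. *Cstf2*, the RNA-binding subunit and the only member on chromosome X, rose by 0.43 ± 0.14 (SE) on the log2 scale and turned to −0.23 with library totals. Without controls 1 and 3, the mice with almost no Y-linked reads, *Cstf2* was at 0.46 and no longer called (adjusted p = 0.053). The counts of *Cstf2* were not whole in any of the 9 mice. *Cstf1* had a log2 fold change of −0.33 ± 0.20 (SE) and did not pass, but with library totals it was −0.98 and called lower. Its locus shares 242 bases with *Aurka* on the opposite strand.

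Cleavage factor I held the largest rise. *Nudt21* is the subunit that binds RNA upstream of the cut and is known for its role in the choice between poly(A) sites. In controls *Nudt21* was at 32.2, 38.8, 34.7, 30.8 and 28.3 CPM, and in *Supt6*-KO mice at 81.2, 92.5, 92.6 and 87.4 CPM. Every *Supt6*-KO mouse was far above the highest control, and the 4 were close together. The log2 fold change of *Nudt21* was 1.42 ± 0.11 (SE, adjusted p = 1.56e-06), or 2.68-fold. *Nudt21* was called higher in all 22 alternatives, with a log2 fold change between 0.73 and 2.03, and it was the only member called higher with library totals. It lies on chr8:94019403-94037039. Its 2 partner subunits did not rise with it. *Cpsf7* fell. In controls *Cpsf7* was at 47.6, 48.7, 57.05, 54.9 and 53.1 CPM, and in *Supt6*-KO mice at 40.3, 33.8, 36.4 and 43.2 CPM. The highest *Supt6*-KO mouse was below the lowest control, and the log2 fold change was −0.44 ± 0.11 (SE, adjusted p = 0.00366). It was −1.12 with library totals, and −0.14 and −0.16 and no longer called after the offsets for transcript length and for GC content and length. *Cpsf6* had a log2 fold change of 0.06 ± 0.11 (SE), which turned to −0.61 with library totals.

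Cleavage factor II, which links the cut to the polymerase, had 2 members, and both rose after TMM scaling, whereas with library totals neither was called higher and *Pcf11* was called lower. In controls *Clp1* was at 14.5, 16.9, 17.2, 14.3 and 11.8 CPM, and in *Supt6*-KO mice at 26.5, 26.9, 32.6 and 33.9 CPM. The lowest *Supt6*-KO mouse was well above the highest control. *Clp1*, an RNA kinase, had a log2 fold change of 1.00 ± 0.14 (SE, adjusted p = 7.34e-05), or 0.32 with library totals. *Pcf11*, which binds the tail of the polymerase, rose by 0.37 ± 0.15 (SE) on the log2 scale, but this passed in only 8 of the 22 alternatives and with library totals it was called lower, at −0.36.

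*Pabpn1*, the nuclear protein that coats new poly(A) tails and sets their length, rose. In controls *Pabpn1* was at 62.6, 70.3, 76.2, 66.3 and 51.6 CPM, and in *Supt6*-KO mice at 125, 132, 125 and 144 CPM. The groups were far apart and the 4 *Supt6*-KO mice lay close together. The change in *Pabpn1* was 1.01 ± 0.13 (SE, adjusted p = 2.63e-05) on the log2 scale, or 0.33 with library totals, at chr14:54894143-54898927. *Papola*, the poly(A) polymerase that it stimulates, had a log2 fold change of 0.25 ± 0.14 (SE), which turned to −0.41 with library totals, and did not pass. Neither of the last 2 members passed. *Rbbp6*, which is needed for the cut, had the smaller p. In controls *Rbbp6* was at 61.9, 50.1, 54.01, 68.99 and 64.7 CPM, and in *Supt6*-KO mice at 87.1, 86.2, 80.5 and 45.1 CPM. *Supt6*-KO mouse 4 lay below all controls and the other 3 above all of them. Its log2 fold change was 0.32 ± 0.19 (SE, adjusted p = 0.148), and it turned to −0.42 with library totals. *Xrn2*, the exonuclease that degrades the RNA behind the cut, was at −0.09 ± 0.17 (SE), but with library totals it was −0.75 and called lower.

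**Figure D2:**
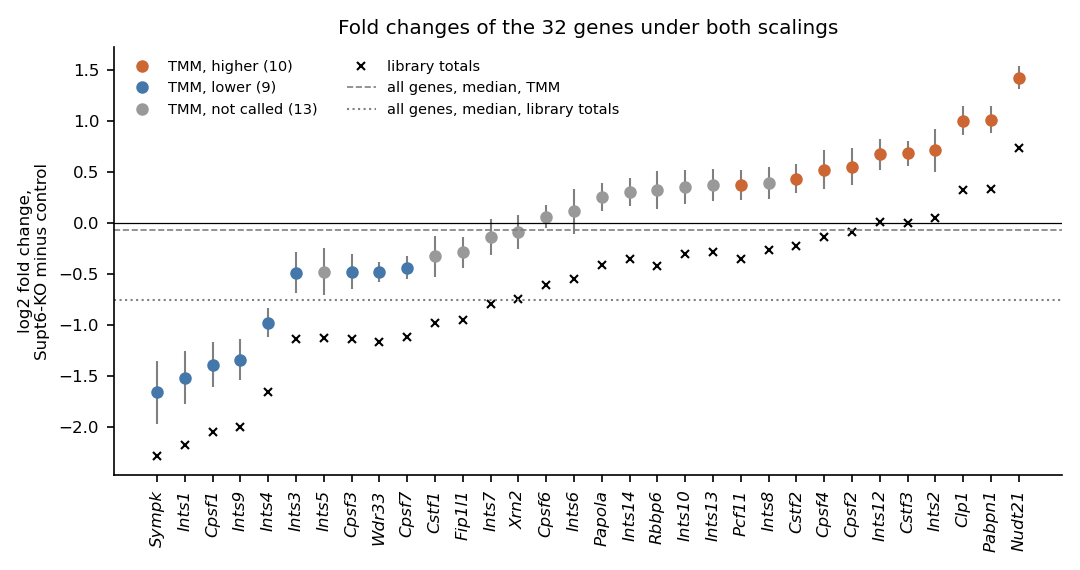
Log2 fold change of each of the 32 genes, *Supt6*-KO minus control, in order of size. Dots are values after TMM scaling with their standard errors, coloured by call (10 higher, 9 lower, 13 not called), crosses are values with library totals, and the dashed and dotted lines are the medians of all genes at −0.072 and −0.759.

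Levels of the members were compared with each other only per length. The TPM that the authors deposited, a level corrected for transcript length, was for the controls highest for *Pabpn1*, 69.7, and *Nudt21*, 65.8, and lowest for *Ints2*, 2.84, and *Ints1*, 4.31. Per kilobase of the transcript with the longest coding sequence, *Pabpn1* was again highest in the controls, at 36.9 CPM, but *Ints6*, at 1.298, was below *Ints2*, at 1.70. The 2 scales also gave other places to *Nudt21*, at 6.58 CPM per kilobase, and to *Cpsf6*, at 28.4 CPM per kilobase and 16.1 TPM. The order therefore depends on the transcript length assumed.

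Ratios of counts between 2 genes of the same mouse need no scaling and are the same under TMM scaling and library totals. The 13 pairs were chosen after the values were seen, partly from genes that had moved in opposite directions, so their separation is a description. The log2 ratio of *Ints11* to *Ints9* was 0.81, 1.20, 1.14, 0.60 and 0.56 in controls and 3.27, 3.73, 3.78 and 2.72 in *Supt6*-KO mice. The mean thus went from 0.86 ± 0.30 (SD, n = 5) to 3.37 ± 0.49 (SD, n = 4), a 5.70-fold change in the ratio of 2 subunits of 1 endonuclease. The log2 ratio of *Ints2* to *Ints1* went from −0.80 ± 0.36 (SD, n = 5) to 1.39 ± 0.08 (SD, n = 4), with all controls below 0 and all *Supt6*-KO mice above. For *Cpsf2* and *Cpsf3*, the inactive and active nucleases, it went from 0.01 ± 0.11 (SD, n = 5) to 1.02 ± 0.15 (SD, n = 4).

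In cleavage factor I the log2 ratio of *Nudt21* to *Cpsf6* was negative in every control, between −1.11 and −0.73, and positive in every *Supt6*-KO mouse, between 0.19 and 0.71. That of *Nudt21* to *Cpsf7* rose from −0.67 ± 0.23 (SD, n = 5) to 1.21 ± 0.23 (SD, n = 4). In CstF, the log2 ratio of *Cstf3* to *Cstf1* rose from 0.32 ± 0.09 (SD, n = 5) to 1.38 ± 0.42 (SD, n = 4). The remaining pairs named here overlapped between the groups. *Ints13* to *Ints14* was at −0.08 ± 0.10 (SD, n = 5) and −0.01 ± 0.09 (SD, n = 4), and *Clp1* to *Pcf11* at −1.69 ± 0.34 (SD, n = 5) and −1.03 ± 0.50 (SD, n = 4).

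**Figure D3:**
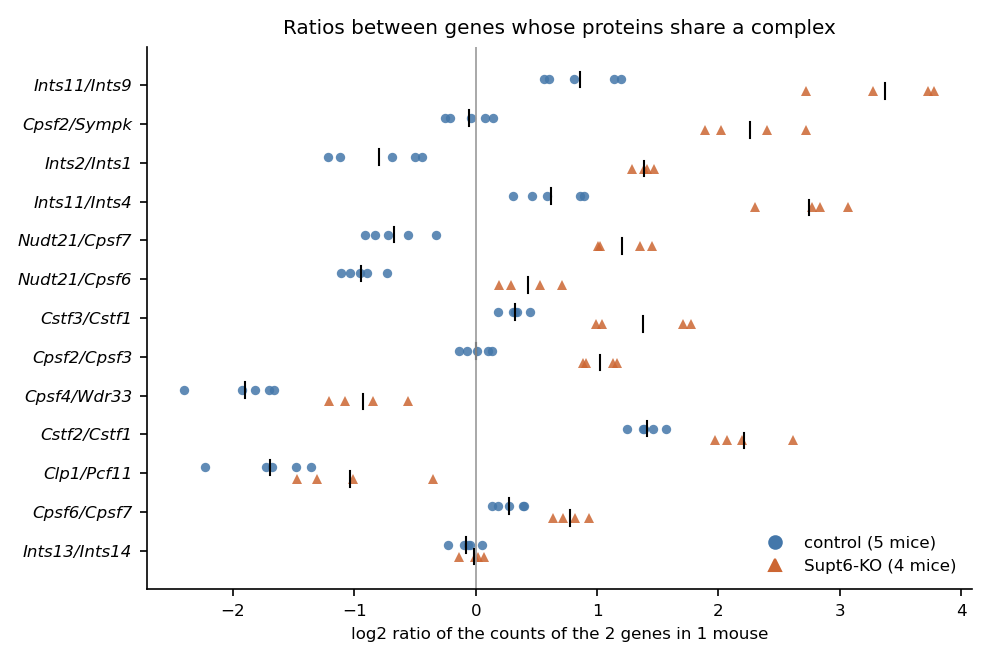
Log2 ratio of the counts of 2 genes in the same mouse for 13 pairs, in order of the difference between the groups. Circles are the 5 controls, triangles the 4 *Supt6*-KO mice and black ticks the means. The groups overlap for *Clp1*/*Pcf11* and *Ints13*/*Ints14* and lie apart for the others, and the difference between the group means is largest for *Ints11*/*Ints9*, at 2.51.

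The members that rose and those that fell differed in GC content and coding length, and less in transcript length. The 10 members that rose had a median GC content of 43.5% and a median of 11 exons, and the 9 that fell 54.1% and 23 exons. The median coding length was 1561.5 bases for the former and 3123 bases for the latter, and the median transcript length was 3801.5 and 4116 bases. Across the 32 members, Spearman's rho of the log2 fold change was −0.60 with GC content, −0.49 with coding length and −0.11 with transcript length, and across 16364 genes it was −0.24, −0.41 and −0.38. These are correlations across genes of the same libraries, which are not independent replicates.

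By log2 fold change, the median of the 11 members with under 45% GC was 0.39, beside 0.46 for all genes of that class. For the 6 members with over 55% GC it was −0.94, beside −0.55 for all genes of that class. *Pabpn1* and *Cpsf4*, at 56.6% and 55.2%, rose against this trend. After the offset for GC content and length, which was chosen after seeing the data, 14 members were called higher and 3 lower (*Ints4*, *Ints9* and *Cpsf3*), against 34.9% and 28.6% of all genes. With an offset for GC content alone, 6 members were called higher and 8 lower, against 35.0% and 33.9% of all genes, and with one for transcript length alone 17 and 6, against 37.1% and 30.9%. Of the 10 members that rose, 5 were still called higher after the GC offset (*Nudt21*, *Pabpn1*, *Clp1*, *Cstf3* and *Cpsf4*), 9 after the length offset and 8 after the joint offset (all but *Cstf3* and *Ints12*). After the joint offset, *Ints3* and *Wdr33* changed from lower to higher. The part of composition and length in the fold changes was otherwise not tested.

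**Figure D4:**
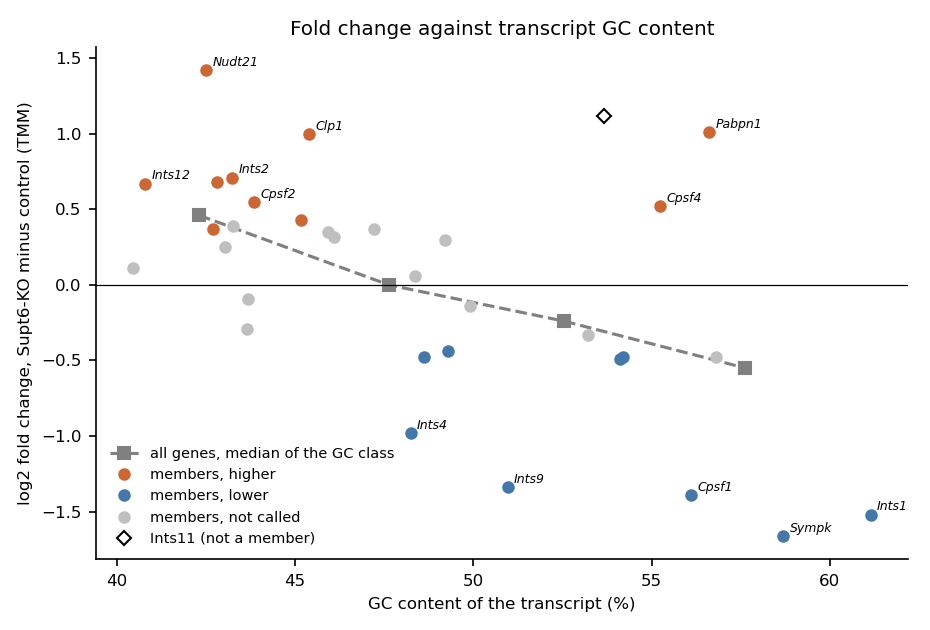
Log2 fold change, *Supt6*-KO minus control, against the GC content of the transcript for the 32 members, coloured by call, and for *Ints11*. Squares are the medians of all genes in 4 GC classes, drawn at the median GC content of the class, and fall from 0.46 to −0.55. *Pabpn1*, *Cpsf4* and *Ints11* lie above the trend.

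The promoters of *Nudt21* and *Pabpn1*, the 2 members that rose most, are shown because both hold several copies of CCAAT, a common promoter element. *Clp1* rose nearly as much as *Pabpn1*, by 1.00 beside 1.01 on the log2 scale, and has no copy in its window. The windows are the 250 bases before the start of each gene in RefSeq, build GRCm38.p6, 5′ to 3′ on the strand of the gene, at chr8:94037040-94037289 (minus strand) and chr14:54893893-54894142 (plus strand). Capitals mark matches of CCAAT on either strand.
Nudt21: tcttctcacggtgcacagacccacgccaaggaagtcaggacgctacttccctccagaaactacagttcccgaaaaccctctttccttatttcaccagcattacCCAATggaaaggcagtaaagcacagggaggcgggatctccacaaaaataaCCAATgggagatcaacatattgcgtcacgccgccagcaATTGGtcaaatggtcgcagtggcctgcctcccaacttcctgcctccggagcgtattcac
Pabpn1: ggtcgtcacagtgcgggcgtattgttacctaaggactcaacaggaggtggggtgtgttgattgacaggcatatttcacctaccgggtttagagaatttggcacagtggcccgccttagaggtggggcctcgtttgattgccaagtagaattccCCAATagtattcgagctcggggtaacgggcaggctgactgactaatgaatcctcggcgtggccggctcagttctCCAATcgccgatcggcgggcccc
RefSeq windows were matched for 26 members. CCAAT was in 12 of them, beside 35.9% of the 13006 promoters of tested genes, and 4 held 2 or more copies, beside 12.7% of all promoters. These 4 were *Nudt21*, *Pabpn1*, *Cstf3* and *Pcf11*, which rose after TMM scaling, while with library totals *Cstf3* was at −0.00 and *Pcf11* at −0.36. Of the 8 members with 1 copy, *Ints2* rose, *Ints3* and *Ints4* fell and 5 did not pass, and of the 14 with none 5 rose (*Ints12*, *Cpsf2*, *Cpsf4*, *Cstf2* and *Clp1*), 4 fell and 5 did not pass. Over all promoters the median log2 fold change was −0.09 without a copy, 0.03 with 1, 0.05 with 2 and 0.14 with 3 or more. GGGCGG was in 14 of the 26 windows, beside 53.7% of all promoters. CCGGAA was in 7, beside 19.1%, and TATAAA in none, beside 8.39%. All patterns were searched on both strands and were chosen with the fold changes and the windows known, and a match is a description of letters only.

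Other genes that act with Integrator were examined as a list of 9, of which 8 were found. Of these, 5 rose and 2 fell, against 34.1% and 36.8% of all genes, with a median log2 fold change of 0.83 beside −0.07 for all genes. With library totals 3 rose and 3 fell, against 16.9% and 54.6% of all genes, and the median was 0.14. *Nabp1*, a single-stranded DNA binding protein of the SOSS complex that partners *Ints3*, rose most. In controls *Nabp1* was at 13.4, 16.7, 17.3, 12.5 and 14.1 CPM, and in *Supt6*-KO mice at 83.2, 102, 124 and 116 CPM. Every *Supt6*-KO mouse was several times above every control, and the log2 fold change was 2.84 ± 0.15 (SE, adjusted p = 1.46e-07), or 2.15 with library totals. *Ints11*, the subunit that cuts RNA, rose from 38 ± 3.08 (SD, n = 5) to 82.8 ± 4.604 (SD, n = 4) CPM, a log2 fold change of 1.12 ± 0.10 (SE, adjusted p = 3.01e-06), or 0.42 with library totals, at chr4:155869547-155889103. The locus of *Ints11* shares 247 bases with *Pusl1* on the opposite strand, whose mean count went from 304 to 594, and the counts of *Ints11* were not whole in any of the 9 mice. *Ppp2ca*, the catalytic subunit of the phosphatase carried by Integrator, rose with a log2 fold change of 1.12 ± 0.13 (SE, adjusted p = 1.7e-05), or 0.44 with library totals. *Ppp2r1a*, the scaffold of that phosphatase, fell by 0.78 ± 0.15 (SE), and *Brat1*, a partner of *Ints9* and *Ints11*, by 1.46 ± 0.17 (SE) on the log2 scale, and with library totals they were at −1.44 and −2.14.

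Of 25 other 3' end and termination genes, 24 were tested, 7 rose and 10 fell, near the shares over all genes of 34.1% and 36.8%, with a median log2 fold change of −0.05. With library totals 4 rose and 16 fell, against 16.9% and 54.6% of all genes, and the median was −0.74. *Ssu72*, a phosphatase of the polymerase tail, rose from 62.8 ± 10.9 (SD, n = 5) to 216 ± 51.2 (SD, n = 4) CPM, a log2 fold change of 1.78 ± 0.19 (SE, adjusted p = 7.41e-06), or 1.06 with library totals. *Rprd1a*, which binds the same tail, rose by 1.72 ± 0.14 (SE), and *Ppp1ca*, a catalytic subunit of protein phosphatase 1, by 1.65 ± 0.14 (SE) on the log2 scale, and with library totals they were at 1.03 and 0.96. *Zc3h4*, which restricts transcription of noncoding regions, fell from 35.7 ± 10.04 (SD, n = 5) to 7.06 ± 2.58 (SD, n = 4) CPM, a log2 fold change of −2.33 ± 0.27 (SE, adjusted p = 1.79e-05), or −2.99 with library totals. The helicase *Dhx9* fell by 1.71 ± 0.22 (SE), and *Scaf4*, which guards against early polyadenylation, by 1.37 ± 0.19 (SE) on the log2 scale, and with library totals they were at −2.37 and −2.04.

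The machinery that ends histone messages shares the cutting module of CPSF and adds its own small ribonucleoprotein. Of 11 genes, 9 rose and *Lsm11* and *Casp8ap2* did not pass, each with a log2 fold change of −0.24. Of all genes, 34.1% were called higher and 36.8% lower. The median log2 fold change was 1.29, or 0.64 after the offset for GC content and length. With library totals the median was 0.57, with 6 genes called higher and 2 lower, against 16.9% and 54.6% of all genes. *Snrpg*, *Snrpe* and *Snrpd3* changed most, with log2 fold changes of 2.70 ± 0.18 (SE), 2.46 ± 0.20 (SE) and 1.63 ± 0.15 (SE), or 1.99, 1.75 and 0.94 with library totals. They encode Sm proteins that the spliceosome also uses, and short genes of this kind can share reads with near-identical copies in the genome. The counts of *Snrpg*, *Snrpe* and *Snrpd3* were whole in all 9 mice, and sharing of reads was not tested.

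**Figure D5:**
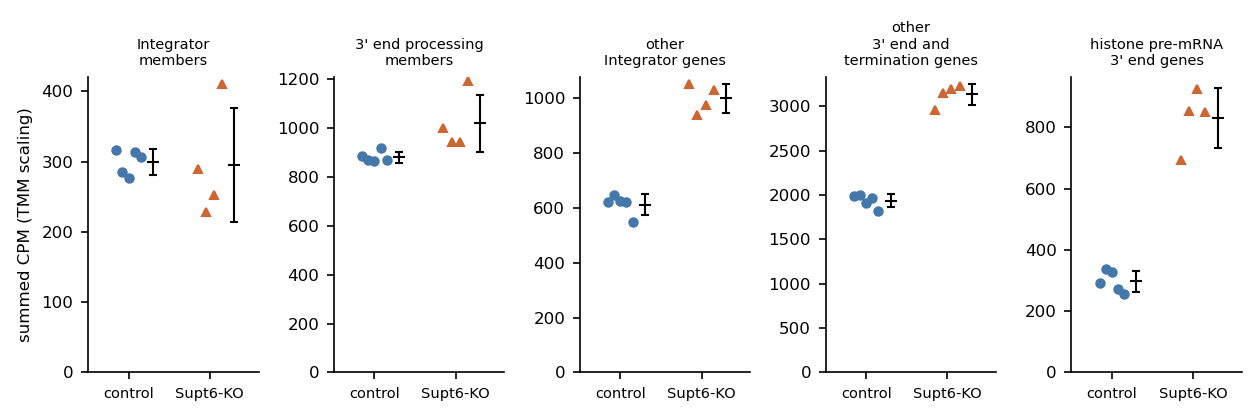
Summed CPM in each mouse for the 13 Integrator members, the 19 3' end processing members and the 3 other lists. Circles are controls, triangles *Supt6*-KO mice, and black bars the mean ± SD. The Integrator members sum to 299 in controls and 295 in *Supt6*-KO mice, and the histone 3' end genes to 297 and 832.

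Markers of the cell types of skin moved with the groups, and they are given beside the results because the RNA came from whole tissue. For each list the gene with the most CPM is named, which is not corrected for length. The keratinocyte markers summed to 26100, 26100, 25200, 28300 and 25600 CPM in controls and 40800, 35700, 36200 and 29000 CPM in *Supt6*-KO mice, with *Krt10* holding the most CPM in both groups. Of the 7, *Krt1* rose, *Krt5*, *Krt15*, *Trp63* and *Itga6* fell and *Krt14* and *Krt10* did not pass. All 6 hair follicle markers fell, from 1140, 123, 414, 250 and 24.9 CPM to 6.1, 4.13, 3.38 and 4.13 CPM, with *Krt71* holding the most CPM in controls and *Msx2* in *Supt6*-KO mice. The hair follicle sums of the controls alone ranged from 24.9 to 1140, so the spread among the controls was large.

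Most connective tissue markers and all 5 skeletal muscle markers fell in *Supt6*-KO mice. Of 6 fibroblast markers 4 fell, and *Col3a1* and *Lum* did not pass. The fibroblast sums were 4710, 4220, 2930, 5950 and 10500 CPM in controls and 2400, 2960, 3780 and 1950 CPM in *Supt6*-KO mice. *Col3a1* held the most CPM in both groups. The 4 adipocyte markers fell, from 104, 127, 115, 96.3 and 82.6 CPM to 36.7, 28, 39 and 30.5 CPM, with *Adipoq* holding the most CPM in both groups. The 5 skeletal muscle markers fell, from 3660, 3830, 3940, 2950 and 2960 CPM to 719, 865, 669 and 584 CPM, with *Acta1* holding the most CPM in both groups. Cartilage markers, which ear tissue holds, were present in the controls. Of 4 cartilage markers 3 were tested and fell, from 227, 148, 159, 279 and 473 CPM to 19.9, 22.8, 18.2 and 21.4 CPM, with *Acan* holding the most CPM in both groups. *Matn1* was not tested, with 1 read in control 3 and 0 in the other 8 mice. The 4 endothelial markers fell, from 71.8, 56, 44.1, 76.7 and 104 CPM to 29.5, 28.5, 33.6 and 25 CPM, with *Pecam1* holding the most CPM in both groups.

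Immune and other markers went both ways. The 5 neutrophil markers rose, from 9.31, 7.09, 6.56, 7.22 and 3.92 CPM to 38.4, 35.8, 83.6 and 27.7 CPM, with *Cxcr2* holding the most CPM in controls and *Retnlg* in *Supt6*-KO mice, there mainly through mouse 3 at 53.4 CPM. *Ly6g* was called on very few reads, 0, 1, 0, 0 and 0 in controls and 4, 0, 15 and 1 in *Supt6*-KO mice, and its groups overlapped. Of 5 macrophage markers 4 rose and *Csf1r* fell, with sums of 101, 84.2, 70.5, 99.8 and 162 CPM and 158, 162, 161 and 194 CPM and *Csf1r* holding the most CPM in controls and *Mrc1* in *Supt6*-KO mice. Of 5 T cell markers 3 fell, *Cd8a* rose and *Cd4* did not pass, with sums of 26.1, 31.5, 33.3, 27 and 24.1 CPM and 10, 7.2, 7.09 and 4.74 CPM and *Cd3g* holding the most CPM in both groups. The 4 melanocyte markers rose, from 57.8, 43.9, 42.7, 46.7 and 60.6 CPM to 88.3, 131, 147 and 133 CPM, with *Dct* holding the most CPM in both groups. Of 5 markers of dividing cells, *Ccnb1*, *Cdk1* and *Birc5* rose and *Mki67* and *Top2a* did not pass, with sums of 102, 75.3, 89.4, 106 and 147 CPM and 137, 148, 248 and 640 CPM and *Top2a* holding the most CPM in controls and *Cdk1* in *Supt6*-KO mice. With library totals, 1 macrophage marker was called higher and 1 lower, 2 melanocyte and 4 neutrophil markers were called higher, 6 fibroblast and 5 keratinocyte markers were called lower, and the other counts of calls in the marker lists were as with TMM scaling. The part of these markers in the changes of the 32 genes was not tested.

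*Supt6*-KO mouse 4, which had the highest sum of the dividing cell markers, also had the highest CPM for most members. The median SD of log2 CPM among the members was 0.135 in controls and 0.362 in *Supt6*-KO mice, beside 0.179 and 0.262 over genes with a mean of at least 5 CPM. Without this mouse, 10 members were called higher and 14 lower, beside 10 and 9 with it. Of all genes, 35.1% were then called higher and 39.1% lower. All 9 members that fell were still called lower, and *Ints5*, *Ints7*, *Cstf1*, *Fip1l1* and *Xrn2* joined them, whereas *Rbbp6* took the place of *Cpsf4* among those called higher. Without controls 1 and 3, the mice with almost no Y-linked reads, 6 members were called higher and 7 lower, all of them with the call they had in the full set, against 31.0% and 33.5% of all genes. *Cpsf2*, *Cpsf4*, *Cstf2*, *Pcf11*, *Ints3* and *Cpsf3* lost their call.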

How the data were processed

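Total RNA from the skin of 9 mice was sequenced by the authors as paired reads. Per the labels' processing notes and the study's methods, reads were aligned to mm10 with Bowtie2 2.3.4.3 and quantified per gene with RSEM 1.3.1. HISAT and DESeq2 1.4.5 are named as well. The annotation and strand setting are not given in the sources used here. The deposited values are RSEM expected counts (estimated counts, 9% not whole), rounded before testing, and the authors' TPM for 6 of the 9 mice, used only for levels in controls. Gene identifiers were matched to RefSeq (GRCm38.p6), 17918 of 17943 with a match and 25 without.

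Genes with a summed count of at least 10 were kept (16426). Fold changes came from edgeR 4.0.16 (TMM, glmQLFit, glmQLFTest) with group as the only term in R 4.3.3, and p-values were adjusted by Benjamini-Hochberg over all genes tested, with a call at 0.05. SE is the log2 fold change divided by the square root of F. p-values set the difference between the groups against the spread between mice, which was estimated with information shared across genes. Totals per mouse were 29627341 to 30967107. The coefficient of variation of the members was 2.2% to 29.2% among controls, beside a counting error of 1.5% to 5.2% at their mean counts. For 1 member (*Ints14*) the spread among controls was no larger than the counting error. Among *Supt6*-KO mice the coefficient of variation was 5.2% to 57.6%, beside a counting error of 1.7% to 8.1%. GC content and length came from GENCODE transcripts. Tables were made with Python 3.11.15 and pandas 2.3.3. The procedure was tested on simulated data, but the simulation was not built to copy the difference in library composition between these groups.

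The members and lists were chosen with earlier results of these data known. Every member is accounted for, and in each of 10 role groups the passing member with the largest rise and the one with the largest fall, or the member with the smallest adjusted p where none passed, are given in every mouse. Members such as *Cpsf1* are described beyond this rule. List genes are named when they passed and were among the 3 largest changes in either direction. Alternatives were other scalings (DESeq2 size factors, library totals, upper quartile), DESeq2 1.42.0's Wald test, other filters, a replicate block, offsets for length, span and GC content, and leaving out mice. The offsets for GC content and the fit without controls 1 and 3 were added after seeing the data.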

Additional observations from a re-analysis of the deposited data

Results flagged for a closer look

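In 10 of 100 groups examined (each member and each list sum in each genotype), 1 mouse lay farther from its group than Dixon's 95% limit allows, where chance gives about 5. *Supt6*-KO mouse 4 accounted for 7 of them. It had the highest CPM of its group for *Ints1* (9.30, group median 5.29), *Ints2* (24.7, group median 14.1), *Ints3* (37.4, group median 20.7), *Ints10* (41.9, group median 24.9) and *Cpsf2* (95.1, group median 53.4), and for the macrophage sum (194, group median 161). It had the lowest for *Rbbp6* (45.1, group median 83.3). Control 5 was low for *Cpsf4* (8.71, group median 12.4) and for the sum of the other Integrator genes (547, group median 622), and control 3 was low for *Cstf1* (15.7, group median 17.9).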

How the results depend on the processing

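*Supt6*, *Nudt21*, *Ints4* and *Ints9* kept their call in all 22 alternatives, and *Clp1*, *Pabpn1*, *Ints1*, *Cpsf1* and *Sympk* in 21. With library totals, 2771 genes were called higher, 1 member higher and 17 lower, 3 other Integrator genes higher, 4 other 3' end genes higher and 16 lower, and 2 histone 3' end genes lower. The member median turned to −0.48, and log2 fold changes turned negative for *Ints6* (−0.55), *Ints8* (−0.27), *Ints10* (−0.31), *Ints13* (−0.29), *Ints14* (−0.36), *Cpsf2* (−0.09), *Cpsf4* (−0.14), *Cpsf6* (−0.61), *Cstf2* (−0.23), *Cstf3* (−0.00), *Pcf11* (−0.36), *Papola* (−0.41) and *Rbbp6* (−0.42). With upper-quartile factors 1 histone 3' end gene was called lower and *Cpsf6* was −0.02. With the length offset 17 members and 14 other 3' end genes were called higher, and *Ints7* (0.52), *Xrn2* (0.19), *Fip1l1* (0.27) and *Wdr33* (0.06) turned positive. With the span offset 16 members were called higher and 8 lower, and the same genes were 0.13, 0.32, 0.11 and 0.15. The share of all genes called with the span offset was not worked out, so these counts cannot be set against a background. With the GC offset 6 members were called higher and 1 histone 3' end gene lower, the member median was −0.01, *Ints6* −0.42, *Pcf11* −0.01 and *Papola* −0.09. With the GC and length offset 3 members were called lower, *Ints1* (0.31), *Ints3* (0.44), *Ints5* (0.31), *Ints7* (0.64), *Cstf1* (0.26) and *Wdr33* (0.53) turned positive and *Cpsf6* negative (−0.15). The cause was not tested for any of these changes. Leaving out 1 mouse at a time gave 8 to 12 members higher and 7 to 14 lower, the 14 without *Supt6*-KO mouse 4, and put *Ints6* between −0.04 and 0.29 and *Cpsf6* between −0.02 and 0.13. With only the 7 mice with Y-linked reads 6 members were called higher. Requiring a 2-fold change as well left 3427 genes higher, 3 members higher and 4 lower, 3 other Integrator genes higher and 1 lower, and 4 other 3' end genes higher and 4 lower. With a replicate block, genes called higher numbered 5251 and genes called lower 5800, with 8 members called higher and 10 called lower. *Cpsf4* (0.39) and *Pcf11* (0.40) lost their call and *Ints5* gained one. The labels do not say whether same-numbered mice share more than a number. Their deviations from the group means correlated at 0.079 on average in 4 pairs and at −0.016 in 16 other pairs. So few pairs cannot decide the question. The limit set by depth was not tested by thinning the counts, and *Ints1* had the fewest reads of the members in a *Supt6*-KO mouse, 107.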
